A study of Mus musculus with 4 samples.

Results

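Follicular helper T cells (Tfh) were one of 12 T cell types named by the authors in tumor-draining lymph nodes of wildtype mice. The Tfh were the cells that the deposited T cell annotation calls Tfh: 210 of 4094 annotated T cells, 84 from mice fed RGX-104 and 126 from mice fed control chow. The annotation lists no barcodes, so each cell was found in the count matrix of its library by its total count, its number of genes and its mitochondrial percentage, and all 5825 annotated T cells and antigen-presenting cells matched 1 barcode each. RGX-104, which activates liver X receptors (LXR), was given in chow from day 3 after the mice received tumor cells, and nodes were taken on day 8. T cells and antigen-presenting cells were sorted from digested nodes and sequenced as single cells from the 5′ end of the transcript, with the T cell receptor (TCR) transcripts in a second library. The study asked how T cells of the draining node differ with and without pharmacological LXR activation.

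Tfh are CD4+ T cells that enter B cell follicles and help B cells in germinal centers. The repressor BCL6 directs their programme, the chemokine receptor CXCR5 draws them to the follicle, and contacts through ICOS, PD-1, CD40L and SLAM family receptors, with the cytokines IL-21 and IL-4, sustain B cell responses. LXRs are nuclear receptors activated by oxysterols. They switch on genes of cholesterol efflux and fatty acid synthesis.

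There was 1 RNA library and 1 TCR library per chow, and the labels do not say how many mice each came from. No difference between chows therefore has a replicate check, and no p-value is given. Intervals are 95% intervals for counting error only, and do not cover differences between mice or between cells. They are too narrow where few cells hold most of the counts of a gene. Reads were collapsed to unique molecular identifiers (UMIs, each counting 1 captured transcript). The RGX-104 library had 38480769 UMIs in 8671 barcodes, and the control library 31530931 UMIs in 7346 barcodes. The Tfh summed to 557999 UMIs in the RGX-104 library, with a median of 5691 per cell, and to 727652 UMIs in the control library, with a median of 4777 per cell. Other T cells had medians of 5021 UMIs in the RGX-104 library and 4949 UMIs in the control library. The libraries shared 95 barcodes, and 2 barcodes of RGX-104 Tfh also occurred in the control library.

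The name Tfh matched the marker transcripts, although the authors named the cells from the same RNA, so these levels are a description with no test. Bcl6 (chr16:23965050-23988866, GRCm38), the defining repressor, was higher in Tfh than in any other T cell type of either library. It reached 80.6 CPM (UMIs of the gene per 1000000 UMIs of its group) in RGX-104 Tfh and 85.2 CPM in control Tfh. The next type was Th1_02 with 20.6 CPM in the RGX-104 library and Treg with 32.8 CPM in the control library, and their intervals did not overlap those of Tfh. Cxcr5 (chr9:44511787-44526444) ranked first in the RGX-104 library, at 39.4 CPM, and second in the control library, at 23.4 CPM, behind the cytotoxic T cells, whose 38.6 CPM rested on 9 UMIs. Icos (chr1:60960773-61000322) ranked 3 of 12 in both libraries, at 452 CPM in RGX-104 Tfh and 489 CPM in control Tfh, below Treg at 917 CPM in the RGX-104 library and 1006 CPM in the control library. Icos alone therefore did not separate Tfh from Treg, whereas Foxp3, the Treg factor, stood at 8.96 CPM in RGX-104 Tfh and 12.4 CPM in control Tfh.

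Several other Tfh genes were highest in Tfh in both libraries, but not all were. Maf ranked 3 of 12 in both libraries. Sh2d1a ranked first in the RGX-104 library and second in the control library, at 231 CPM behind cytotoxic T cells at 274 CPM. Pdcd1, which encodes PD-1, was highest in Tfh, with 77.1 CPM in RGX-104 Tfh and 98.9 CPM in control Tfh. Its intervals overlapped those of the next type, cytotoxic T cells in the RGX-104 library and Treg in the control library. Tox2, a factor that acts with BCL6, stood 106-fold above the other T cells of the RGX-104 library and 40.9-fold above those of the control library. Il21 (chr3:37222759-37232636) was found at 34.1 CPM in RGX-104 Tfh and 37.1 CPM in control Tfh. Il4 was found at 26.9 CPM in RGX-104 Tfh and 38.5 CPM in control Tfh, and no other annotated T cell of either library held an Il4 UMI. The adhesion receptor gene Itgb1 was 9.02-fold above other T cells in the RGX-104 library and 9.56-fold above them in the control library. Tnfsf11, which encodes RANKL, was 16.4-fold above them in the RGX-104 library and 15.8-fold in the control library. Tbc1d4, a regulator of vesicle traffic, was 19.2-fold above them in the RGX-104 library and 21.7-fold in the control library. Ccr7, which encodes the receptor that holds T cells in the T cell zone, was at 0.396 of the level of other T cells in the RGX-104 library and at 0.492 of it in the control library. The trait was not limited to Tfh. With RGX-104 it stood at 285 CPM in Tfh and 171 CPM in Treg, and with control chow at 445 CPM in Tfh and 411 CPM in Treg.

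**Figure D1:**
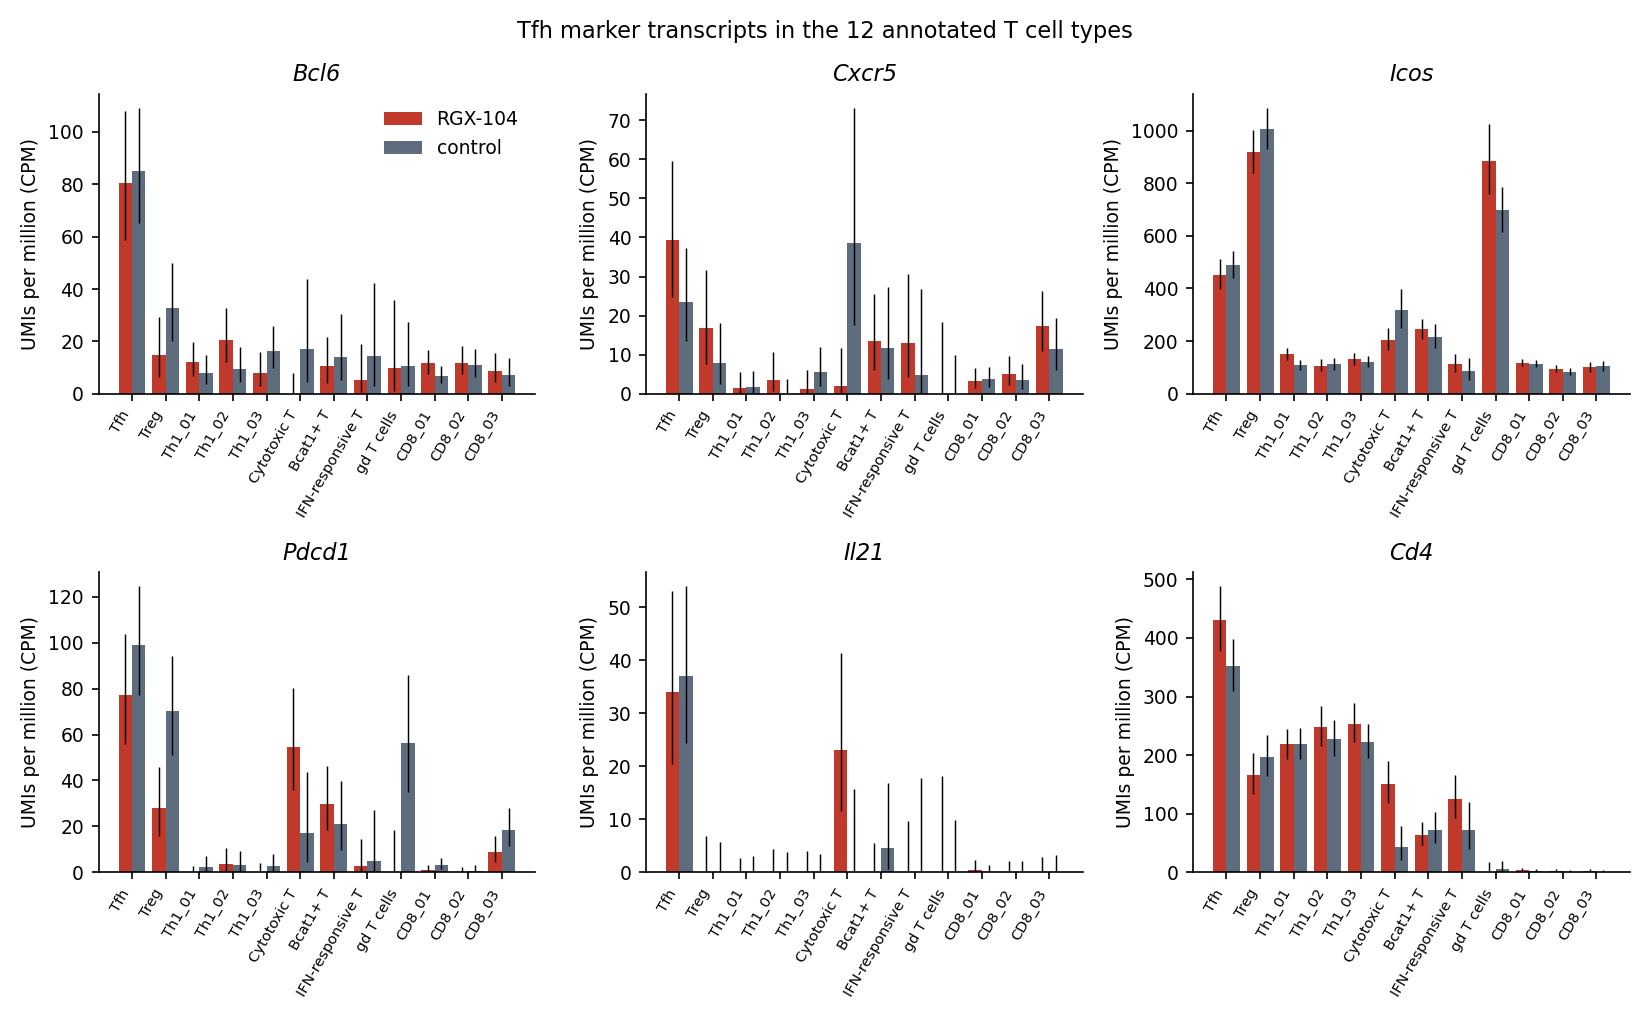
CPM of 6 genes in the 12 annotated T cell types, with the RGX-104 library in red at the left of each pair and the control library in grey at the right; lines are exact 95% Poisson intervals. Bcl6, Pdcd1, Il21 and Cd4 are highest in Tfh in both libraries, Icos is highest in Treg, and the control Cxcr5 bar of cytotoxic T cells rests on 9 UMIs.

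Single Tfh cells seldom held UMIs of all markers at once. At least 1 of Bcl6, Cxcr5 and Icos was detected in 72 of 84 RGX-104 Tfh (85.7%) and 103 of 126 control Tfh (81.7%), against 44.1% of other T cells in the RGX-104 library and 40.5% in the control library. All 3 were detected in 4 RGX-104 Tfh and 5 control Tfh. Bcl6 UMIs were seen in 27.4% of RGX-104 Tfh and 27.8% of control Tfh. In CD8_01 the share was 6.13% in the RGX-104 library at a median of 5588 UMIs per cell, and 3.88% in the control library at 5626. With every cell thinned to 2000 UMIs, the Bcl6 shares were 13.5% in RGX-104 Tfh and 13.3% in control Tfh, where 5 shallower control cells were left out. Il21 was found in 10 RGX-104 cells and 12 control cells, and Il4 in 5 RGX-104 cells and 13 control cells. UMIs of both cytokines were found together in 0 of 84 RGX-104 Tfh and in 5 control cells. With so few UMIs this count says nothing about how many cells express both genes.

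Fewer Tfh held CD8 transcripts in the RGX-104 library than in the control library. Cd8a or Cd8b1, which encode the coreceptor chains of cytotoxic T cells, gave a UMI in 8 of 84 RGX-104 Tfh (9.52%, 4.20 to 17.9) and in 28 of 126 control Tfh (22.2%, 15.3 to 30.5). The ratio of these shares was 0.429 (0.169 to 0.965). Of the Tfh with a CD8 UMI, 6 RGX-104 cells and 21 control cells held at least 2. Treg and Th1 types held Cd8b1 UMIs as well. In Treg the share of cells was 20.3% with RGX-104 and 7.22% with control chow. It was 11.8% and 6.57% in Th1_01, 5.77% and 9.54% in Th1_02, and 9.39% and 6.28% in Th1_03. Summed over Tfh, the 2 CD8 genes stood at 106 CPM in the RGX-104 library and 510 CPM in the control library. A CD8 UMI without a Cd4 UMI was found in 4 RGX-104 Tfh and 18 control Tfh, as the plot of coreceptor UMIs shows. Cd8-positive control Tfh were high in the cytotoxic granule gene Nkg7, at 986 CPM against 146 CPM in control Tfh without a CD8 UMI, and in the inhibitory receptor gene Cd160, at 170 CPM against 11.4 CPM. They still held Icos at 586 CPM against 453 CPM. The main comparisons are therefore given also without these cells, over 76 RGX-104 Tfh and 98 control Tfh.

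**Figure D2:**
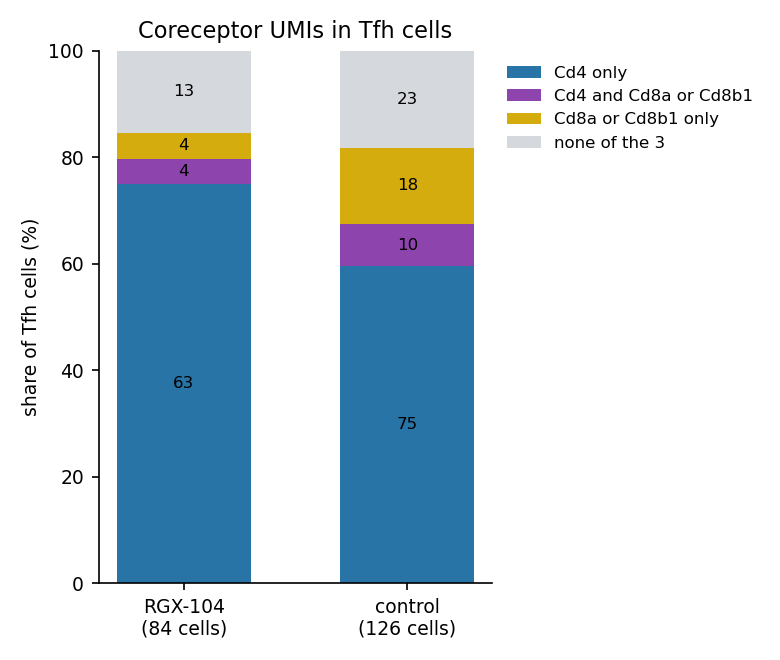
Share of Tfh cells (%) by detected coreceptor UMIs, RGX-104 at the left and control at the right, with cell numbers printed in each segment. The segments with Cd8a or Cd8b1 hold 8 of 84 RGX-104 cells and 28 of 126 control cells.

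UMIs of other lineages were present in Tfh of both libraries. A list of 14 B cell genes summed to 157 UMIs (281 CPM) in RGX-104 Tfh and 176 UMIs (242 CPM) in control Tfh. A list of 20 myeloid and dendritic cell genes summed to 261 UMIs (468 CPM) in RGX-104 Tfh and 344 UMIs (473 CPM) in control Tfh. Erythroid and neutrophil genes were at 0 in Tfh of both libraries. UMIs of at least 2 of the 34 B cell and myeloid genes were found in 77.4% of RGX-104 Tfh and 58.7% of control Tfh, and in 76.4% of other T cells of the RGX-104 library and 65.1% of those of the control library. The deposited doublet score had a median of 0.0945 in RGX-104 Tfh and 0.0668 in control Tfh, against 0.0182 and 0.0207 in other T cells of the RGX-104 and the control library. The authors had classed all of these cells as singlets. The part of captured free RNA and of doublets in the results below was not tested beyond the values given.

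Tfh made up a smaller share of annotated T cells in the RGX-104 library. They were 84 of 1995 T cells (4.21%, exact binomial interval 3.37 to 5.19) with RGX-104 and 126 of 2099 (6.003%, 5.02 to 7.11) with control chow, a ratio of 0.701 (0.526 to 0.932). Without cells that had a CD8 UMI, Tfh were 76 of 1995 T cells (3.81%) in the RGX-104 library and 98 of 2099 (4.67%) in the control library, a ratio of 0.816 whose interval of 0.597 to 1.11 includes 1. Treg, the other CD4 type with high Icos, had a ratio of 0.857 (0.628 to 1.17). Cell shares after sorting also depend on the gates and on which barcodes the authors kept, and with 1 library per chow these and the chow cannot be told apart. Of barcodes without an annotation, 32 in the RGX-104 library and 17 in the control library held Cd3e and at least 4 of 8 Tfh markers.

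Genes of the Tfh programme lay on both sides of the control level, and 4 of 33 measured members passed 1.5-fold. Of 44 genes in the lists of Tfh transcription factors, surface receptors, and cytokines with signalling proteins, 33 had at least 50 UMIs over both libraries and are called measured here. Their median log2 ratio of CPM in RGX-104 over control was 0.02, beside −0.03 over all 3794 measured genes, with 17 above 0 and 16 below. At least 1.5-fold higher in RGX-104 Tfh was 1 of the 33 genes, beside 4.30% of all measured genes. At least 1.5-fold lower were 3 of the 33, beside 5.43% of all measured genes. Without Cd8-positive cells the median was −0.04 over 32 genes, of which 0 were higher, beside 3.95% of all genes measured there, and 4 lower, beside 6.13%.

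Among the transcription factors, Bcl6 had 45 UMIs in RGX-104 Tfh and 62 in control Tfh, a ratio of 0.946 (0.630 to 1.41). Without Cd8-positive cells the Bcl6 ratio was 0.683, on 33 UMIs in RGX-104 Tfh and 51 in control Tfh. Tcf7, which encodes TCF-1 and favours early Tfh commitment, had 255 UMIs in RGX-104 Tfh and 361 in control Tfh, a ratio of 0.921 (0.782 to 1.08). These intervals include 1. Maf, which drives Il21 transcription, had 148 UMIs in RGX-104 Tfh and 131 in control Tfh, a ratio of 1.47 (1.16 to 1.88). Without Cd8-positive cells it was 1.25, with an interval of 0.966 to 1.61 that includes 1. In other T cells the Maf ratio was 0.946. The log2 ratio of Maf in Tfh exceeded that in other T cells by 0.64 (0.25 to 1.03). The interval includes 0 without Cd8-positive Tfh (0.40, −0.0026 to 0.80) and against Treg (0.33, −0.096 to 0.76). Batf, a cofactor of IRF4 in Tfh, had a ratio of 1.27 (0.960 to 1.67).

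Irf4 (chr13:30749233-30766981) was the exception among these factors. It encodes IRF4, which T cells induce with the strength of TCR signalling and which Tfh need to form. Irf4 had 13 UMIs in RGX-104 Tfh, from 9 cells, and 89 UMIs in control Tfh, from 28 cells. The ratio was 0.190 (0.0976 to 0.343), and 0.171 without Cd8-positive cells. The most any cell held was 3 UMIs in RGX-104 Tfh and 9 UMIs in control Tfh, so no single cell carried the difference. Other T cells together had a ratio of 1.53. Among the 7 other types with at least 50 cells per library the ratio ran between 0.907 in CD8_03 and 3.15 in Th1_03. The interval lay above 1 in Th1_01 and Th1_03, and included 1 in Treg, Th1_02, CD8_01, CD8_02 and CD8_03. The pooled cells also held 58 Bcat1+ T cells with RGX-104 and 30 with control chow, at 134 and 128 CPM of Irf4. The part of this make-up in the pooled ratio was not tested. The log2 ratio in Tfh was below that in other T cells by a difference of −3.01 (−3.88 to −2.14). Against single types the difference was smallest in size for CD8_03, at −2.25 (−3.61 to −0.89). Egr2 and Egr3, other targets of TCR signalling, had too few UMIs to be called measured, with 7 and 8 in RGX-104 Tfh against 20 and 28 in control Tfh. Nr4a1, which TCR signals also induce, had 175 UMIs in RGX-104 Tfh and 256 in control Tfh, a ratio of 0.891 (0.731 to 1.08), and Nr4a3 had a ratio of 1.42 (1.16 to 1.75).

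Of 14 measured surface receptors of Tfh, 0 passed 1.5-fold in either direction, and their median log2 ratio was 0.02. Of all measured genes 4.30% were higher and 5.43% lower. Without Cd8-positive cells 1 of 14 receptors was lower, beside 6.13% of all genes measured there. The lower receptor was Btla, which is inhibitory, with 63 UMIs in RGX-104 Tfh and 101 in control Tfh there, a ratio of 0.659 (0.473 to 0.911). Icos had 252 UMIs in RGX-104 Tfh and 356 in control Tfh, a ratio of 0.923 (0.782 to 1.09) that was 0.994 without Cd8-positive cells. Pdcd1 had 43 UMIs in RGX-104 Tfh and 72 in control Tfh, a ratio of 0.779 (0.521 to 1.15). Cd40lg, the ligand with which Tfh signal to B cells, had a ratio of 0.969 (0.753 to 1.24), and Slamf6, a receptor of the SLAM family, 0.965 (0.777 to 1.197). Cxcr4, the receptor for the dark zone chemokine CXCL12, had the highest ratio, 1.46 (1.15 to 1.85). Cxcr5 had 22 UMIs in RGX-104 Tfh and 17 in control Tfh, a ratio of 1.69 (0.856 to 3.38), too few to be called measured. A difference in Cxcr5 was not detectable at this depth.

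Cytokine transcripts were sparse. Il21 had 19 UMIs in RGX-104 Tfh and 27 in control Tfh, a ratio of 0.918 (0.482 to 1.71), and Il4 had 15 UMIs in RGX-104 Tfh and 28 in control Tfh, a ratio of 0.699 (0.347 to 1.35). Neither interval excludes 1. Sh2d1a, the adaptor SAP that SLAM receptors need for Tfh contact with B cells, had a ratio of 1.10 (0.875 to 1.39). Sostdc1, a secreted inhibitor of BMP and Wnt signalling, was the programme gene that passed 1.5-fold upward, with 72 UMIs in RGX-104 Tfh and 61 in control Tfh. It came from 4 RGX-104 cells and 5 control cells, 1 RGX-104 cell held 55 of the 72 UMIs, and without Cd8-positive cells the ratio was 0.499. Rgs16, a brake on chemokine receptor signalling, had 13 UMIs in RGX-104 Tfh and 39 in control Tfh (0.435, 0.213 to 0.832). Angptl2, a secreted protein, had 19 UMIs in RGX-104 Tfh and 51 in control Tfh (0.486, 0.271 to 0.837).

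**Figure D3:**
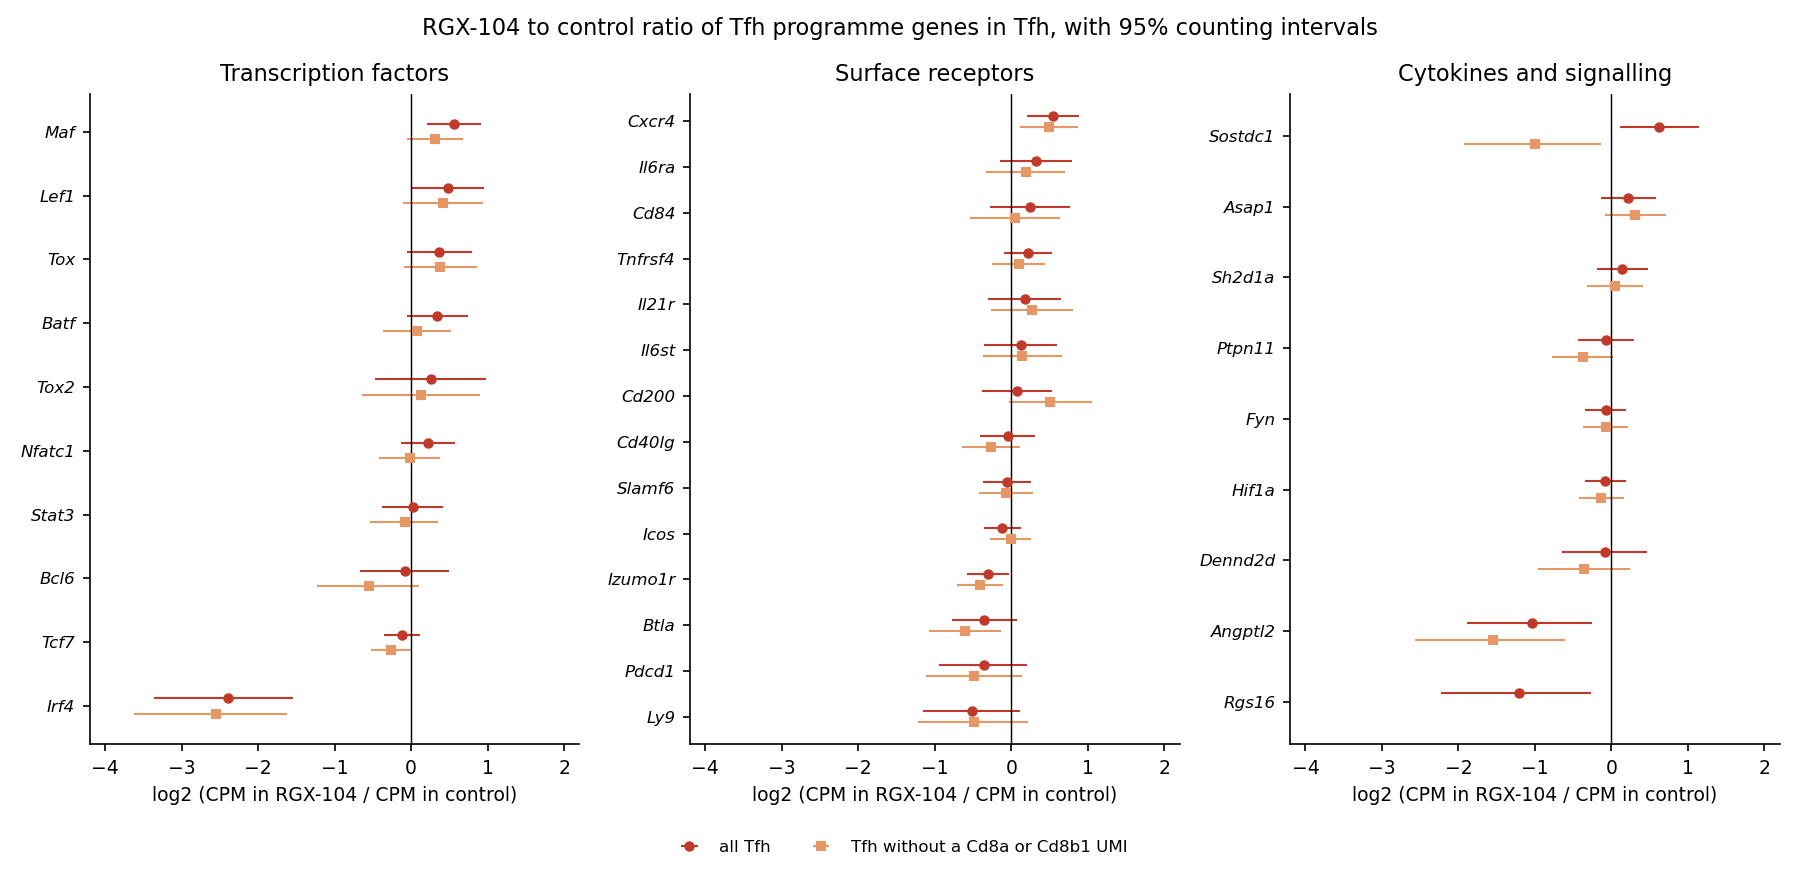
Log2 ratio of CPM, RGX-104 over control, for the measured genes of the 3 Tfh lists, in all Tfh (red circles) and in Tfh without a Cd8a or Cd8b1 UMI (orange squares); lines are 95% counting intervals. Most genes lie near 0, Irf4 lies at −2.39, and Sostdc1 changes side when Cd8-positive cells are left out.

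Klf2 (chr8:72319062-72321654) was lower in RGX-104 Tfh. It encodes KLF2, which activates genes of lymph node egress and homing and opposes Tfh formation. Klf2 had 82 UMIs in RGX-104 Tfh, from 35 cells, and 267 UMIs in control Tfh, from 73 cells, a ratio of 0.400 (0.309 to 0.515). Without Cd8-positive cells the ratio was 0.320 (0.237 to 0.429), farther from 1 than with them. The Klf2 ratio was below 1 in all 7 other types as well, between 0.488 in Treg and 0.799 in Th1_03, and was 0.698 in other T cells together. The log2 ratio in Tfh minus that in other T cells was −0.80 (−1.16 to −0.44). Against Treg it was −0.28, with an interval of −0.81 to 0.24 that includes 0, so Tfh and Treg were not separated by it.

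Other genes of homing and egress were less far apart. Ccr7 had 159 UMIs in RGX-104 Tfh and 324 in control Tfh, a ratio of 0.640 (0.526 to 0.776), against 0.796 in other T cells. In Treg its ratio was lower still, at 0.417, and the log2 ratio in Tfh exceeded that in Treg by 0.62 (0.18 to 1.06). Against Th1_01, Th1_02 and Th1_03 the interval of the difference included 0. Against CD8_01, CD8_02 and CD8_03 it lay below 0. S1pr1, the egress receptor that KLF2 activates, had 50 UMIs in RGX-104 Tfh and 86 in control Tfh, a ratio of 0.758 (0.524 to 1.09). Gpr183, which encodes the oxysterol receptor EBI2 that guides T cells to the follicle border, had 56 UMIs in RGX-104 Tfh and 81 in control Tfh, a ratio of 0.902 (0.630 to 1.28). Of 13 measured homing and egress genes, 0 were at least 1.5-fold higher, beside 4.30% of all measured genes, and 2, Klf2 and Ccr7, at least 1.5-fold lower, beside 5.43%. Without Cd8-positive cells 0 of 12 were higher, beside 3.95% of all genes measured there, and 3 lower, beside 6.13%. Among genes that oppose the Tfh fate, Runx3, a factor of cytotoxic and Th1 cells, had 80 UMIs in RGX-104 Tfh and 58 in control Tfh, a ratio of 1.80 (1.27 to 2.57) that was 1.71 without Cd8-positive cells. Foxo1, which activates Klf2, had a ratio of 0.700 (0.488 to 0.994).

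**Figure D4:**
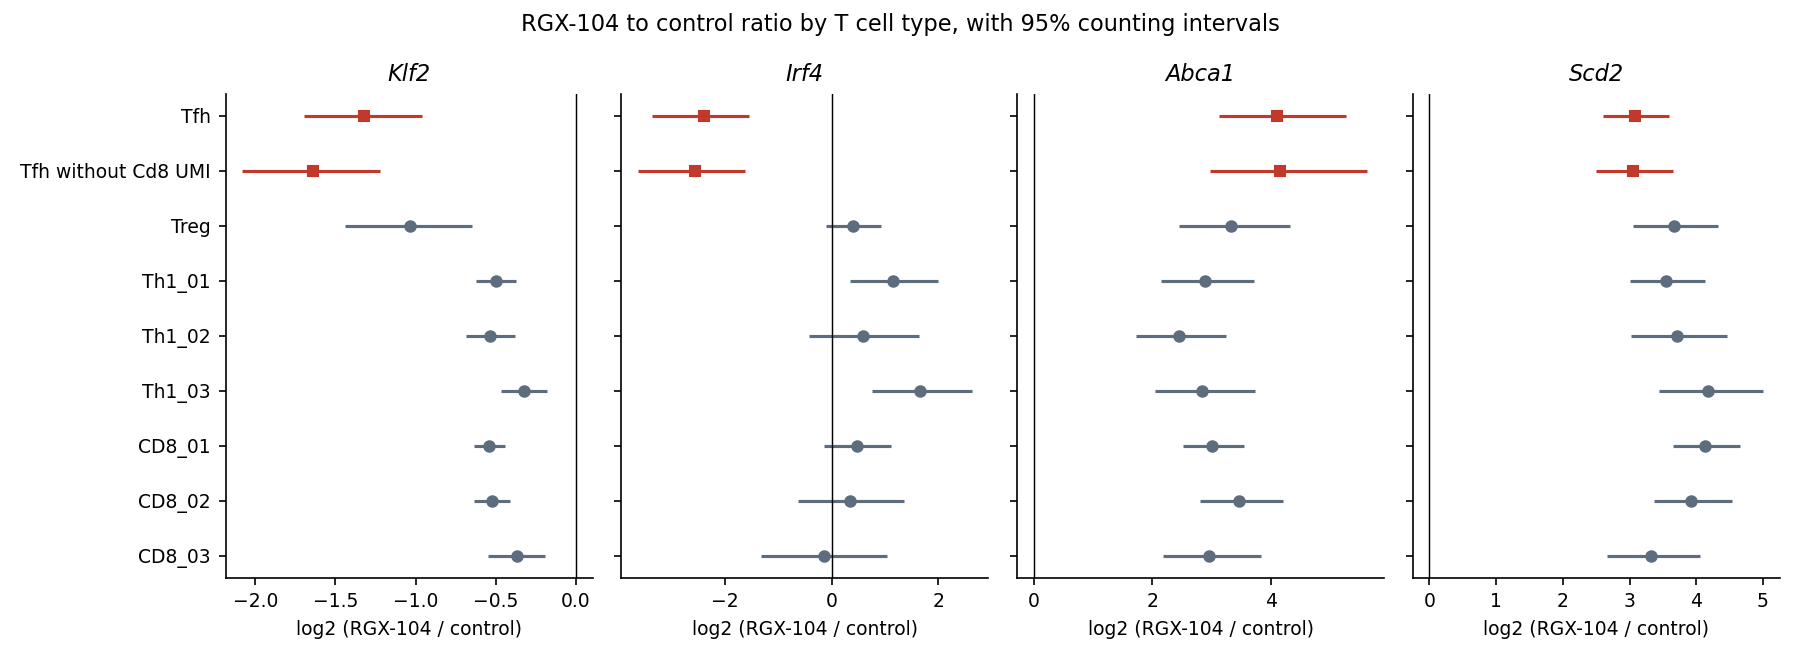
Log2 ratio of CPM, RGX-104 over control, for 4 genes in Tfh, in Tfh without a Cd8 UMI (red squares) and in the 7 other T cell types that had at least 50 cells per library (grey circles); lines are 95% counting intervals. Klf2 lies below 0 in every type and lowest in Tfh, Irf4 lies below 0 in Tfh and CD8_03, and Abca1 and Scd2 lie above 0 in every type.

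LXR target genes were higher in RGX-104 Tfh, led by the sterol exporter Abca1. Of 24 genes on the list 10 were measured. The count past 1.5-fold was 7 upward, beside 4.30% of all measured genes, and 0 downward, and the median log2 ratio was 1.83. Without Cd8-positive cells, 7 of 9 were higher, beside 3.95% of all genes measured there, and the median was 2.19. In other T cells 12 of 18 measured targets lay above 1.5-fold, beside 2.99% of all genes measured there, 0 lay below, and the median was 1.26. The receptor LXRβ, encoded by Nr1h2, was present, with 33 UMIs in RGX-104 Tfh and 37 in control Tfh, a ratio of 1.16 (0.705 to 1.91). Nr1h3, which encodes LXRα, had 0 UMIs in Tfh of both libraries, which allows levels of up to 5.38 CPM in RGX-104 Tfh and 4.12 CPM in control Tfh.

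Abca1, which moves cholesterol to lipid-poor apolipoproteins, had 119 UMIs in RGX-104 Tfh and 9 in control Tfh, a ratio of 17.2 (8.78 to 38.6). UMIs of Abca1 were found in 52 of 84 RGX-104 Tfh and 8 of 126 control Tfh, and no RGX-104 cell held more than 7 of them. Its level with RGX-104 was 213 CPM in Tfh, the highest of the 12 types in that library, and 188 CPM in Treg, while the control levels were 12.4 CPM in Tfh and 18.7 CPM in Treg. The ratios of the 7 other types ran between 5.44 in Th1_02 and 11.04 in CD8_02. The log2 ratio of Abca1 in Tfh exceeded that of other T cells by 1.13 (0.12 to 2.14), and without Cd8-positive Tfh by 1.17 (−0.04 to 2.39), an interval that includes 0. Against single types the interval lay above 0 for Th1_01, Th1_02 and Th1_03, and included 0 for Treg (0.78, −0.52 to 2.09), CD8_01, CD8_02 and CD8_03.

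Abcg1, which exports cholesterol to mature lipoprotein particles, had 75 UMIs in RGX-104 Tfh and 21 in control Tfh, a ratio of 4.66 (2.84 to 7.96). Mylip, which encodes the ubiquitin ligase IDOL, had 68 UMIs in RGX-104 Tfh and 16 in control Tfh, a ratio of 5.54 (3.18 to 10.2). Its ratio in other T cells was 2.25, and the log2 difference was 1.30 (0.50 to 2.10), with Treg again the type that was not separated from Tfh (0.43, −0.82 to 1.68). The lipogenic targets were higher too. Srebf1, which encodes the lipogenic factor SREBP-1, had 82 UMIs in RGX-104 Tfh and 25 in control Tfh, a ratio of 4.28 (2.70 to 6.99). Scd2, which desaturates stearoyl-CoA, had 265 UMIs in RGX-104 Tfh, 42 of them in 1 cell, and 41 in control Tfh, a ratio of 8.43 (6.05 to 12.02). Its ratio was below that of other T cells (13.9), by a log2 difference of −0.72 (−1.24 to −0.20). Against single types the Scd2 interval lay below 0 for CD8_01, CD8_02 and Th1_03. It included 0 for Treg (−0.59, −1.35 to 0.18), Th1_01, Th1_02 and CD8_03. Fasn, the fatty acid synthase, had a ratio of 2.94 (1.90 to 4.65). Arl4c, a small GTPase of the target list, had a ratio of 1.52 (1.18 to 1.97). The remaining measured targets, Elovl5, Rab3gap1 and Smpdl3a, had ratios of 1.02, 0.959 and 0.835. Apoe, a target best known from macrophages, had 3 UMIs in RGX-104 Tfh and 34 in control Tfh, of which 1 control cell held 47.1%. In the 7 other types its ratio ran between 1.44 and 3.94.

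The promoters of 3 of these targets are shown because they hold the LXR element, a repeat of 2 half-sites spaced by 4 bases. Sequences are from RefSeq on GRCm38.p6, 250 bases before to 50 after the start site, in the 5′ to 3′ direction of the gene, and capitals mark the match to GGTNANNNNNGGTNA on either strand. The Abca1 promoter (chr4:53159846-53160145, minus strand) has its match starting 67 bases before the start site. The match starts 182 bases before it in a Srebf1 promoter (chr11:60210422-60210721, minus strand). It starts 225 bases before it in the Fasn promoter (chr11:120824498-120824797, minus strand). Srebf1 promoters at chr11:60222532-60222831 and chr11:60220578-60220877 held no match.
Abca1: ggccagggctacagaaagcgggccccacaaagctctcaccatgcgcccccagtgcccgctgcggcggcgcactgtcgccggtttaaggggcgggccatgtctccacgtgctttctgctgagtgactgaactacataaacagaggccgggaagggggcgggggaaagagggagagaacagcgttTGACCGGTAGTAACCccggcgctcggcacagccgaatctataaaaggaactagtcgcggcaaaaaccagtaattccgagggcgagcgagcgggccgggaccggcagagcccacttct
Srebf1: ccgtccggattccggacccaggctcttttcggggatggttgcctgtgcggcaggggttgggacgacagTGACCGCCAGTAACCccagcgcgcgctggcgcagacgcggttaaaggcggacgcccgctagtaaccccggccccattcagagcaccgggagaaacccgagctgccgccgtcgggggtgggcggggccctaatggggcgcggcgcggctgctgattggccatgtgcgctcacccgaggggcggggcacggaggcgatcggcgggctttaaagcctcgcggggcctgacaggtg
Fasn: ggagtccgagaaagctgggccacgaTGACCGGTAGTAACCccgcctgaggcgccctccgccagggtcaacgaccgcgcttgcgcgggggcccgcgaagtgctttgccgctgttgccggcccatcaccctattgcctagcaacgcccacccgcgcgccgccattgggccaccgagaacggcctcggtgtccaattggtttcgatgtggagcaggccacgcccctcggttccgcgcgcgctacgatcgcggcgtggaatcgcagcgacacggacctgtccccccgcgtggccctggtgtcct
Of the 10 measured targets 7 had a promoter in the table and these 3 held a match, while 221 of all 27025 genes with a promoter (0.818%) did. A match is a description of the letters and was not tested as a binding site.

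Cholesterol synthesis and uptake genes showed higher levels in RGX-104 Tfh as well. These are controlled mainly by SREBP-2, which acts when cells sense too little sterol. Of 26 listed genes 9 were measured. Past 1.5-fold were 8 upward, beside 4.30% of all measured genes, and 0 downward, and the median log2 ratio was 1.17. Without Cd8-positive cells 6 were measured, 4 of them higher, beside 3.95%. In other T cells 22 of 24 were higher, beside 2.99%, with a median of 1.31, so the direction was not limited to Tfh. Idi1, the isopentenyl diphosphate isomerase, had 48 UMIs in RGX-104 Tfh and 15 in control Tfh, a ratio of 4.17 (2.30 to 8.02). Hmgcs1, the HMG-CoA synthase, had 37 UMIs in RGX-104 Tfh and 13 in control Tfh, a ratio of 3.71 (1.93 to 7.61). Fdps, the farnesyl diphosphate synthase, had a ratio of 3.45 (1.94 to 6.43), and Insig1, the sterol sensor that retains SREBPs, 3.15 (1.93 to 5.30). These 4 genes thus had ratios above 3. Cyp51, the lanosterol demethylase, had a ratio of 2.25 (1.30 to 3.998), below that of other T cells by a log2 difference of −0.92 (−1.72 to −0.12), whose interval includes 0 without Cd8-positive Tfh (−0.84, −1.73 to 0.047).

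The Hmgcs1 promoter (chr13:119690101-119690400, plus strand) is shown as the one measured gene of this pathway with the SREBP element TCACNCCAC on either strand, marked by capitals, which starts 137 bases before the start site.
Hmgcs1: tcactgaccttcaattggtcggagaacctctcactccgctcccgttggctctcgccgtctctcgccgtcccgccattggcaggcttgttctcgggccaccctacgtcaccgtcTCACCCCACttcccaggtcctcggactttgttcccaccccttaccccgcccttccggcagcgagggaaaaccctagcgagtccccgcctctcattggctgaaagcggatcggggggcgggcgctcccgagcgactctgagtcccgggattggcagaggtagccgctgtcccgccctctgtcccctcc
It was 1 of 6 measured genes with a promoter in the table, and 388 of all 27025 genes with a promoter (1.44%) held a match.

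**Figure D5:**
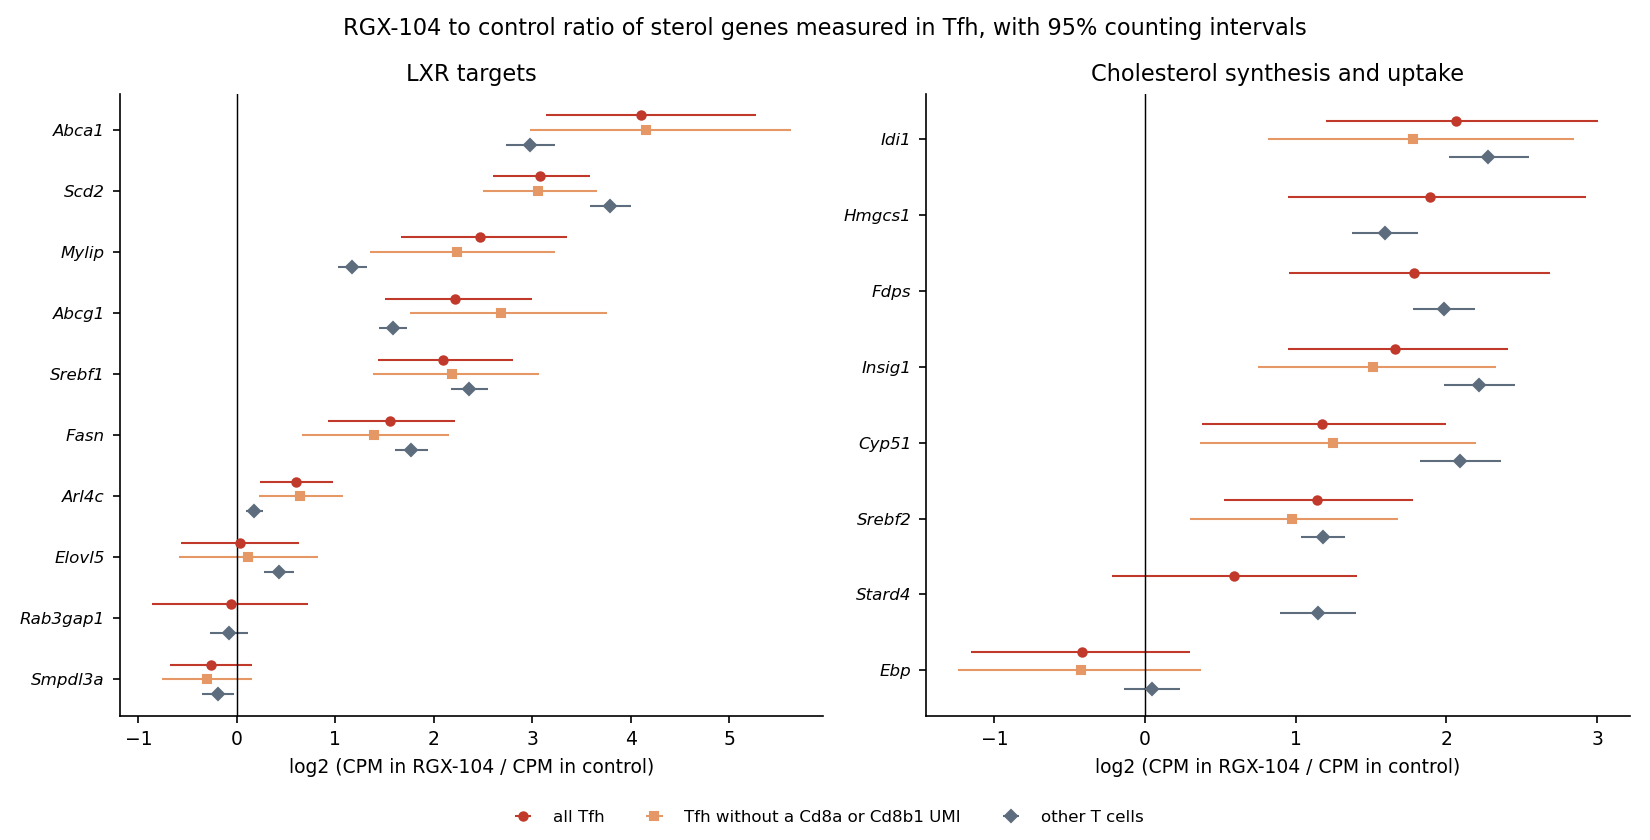
Log2 ratio of CPM, RGX-104 over control, for the measured LXR targets (left) and 8 measured cholesterol genes (right), in all Tfh (red circles), in Tfh without a Cd8a or Cd8b1 UMI (orange squares) and in other T cells (grey diamonds); lines are 95% counting intervals. Abca1, Mylip and Abcg1 have higher points in Tfh than in other T cells, and Scd2, Srebf1, Fasn and Cyp51 have lower ones.

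Cd69 and Fos, which respond early to T cell activation, were lower with RGX-104 in Tfh and in other T cells. Of 15 measured T cell activation genes, 1 was at least 1.5-fold higher, beside 4.30% of all measured genes, and 4 lower, beside 5.43%. Without Cd8-positive cells 1 of 14 was higher, beside 3.95% of all genes measured there, and 3 were lower, beside 6.13%. Of 16 measured immediate early and stress genes in all Tfh, 0 were higher, beside 4.30%, and 3 lower, beside 5.43%. Cd69, an early activation receptor that retains cells in the node, had 87 UMIs in RGX-104 Tfh and 207 in control Tfh, a ratio of 0.548 (0.422 to 0.707), and its ratio in other T cells was 0.648. Fos, an AP-1 subunit, had 111 UMIs in RGX-104 Tfh and 254 in control Tfh, a ratio of 0.570 (0.452 to 0.715), against 0.596 in other T cells. Fos and Cd69 thus had similar ratios outside Tfh, where 7 of 7 types lay between 0.453 and 0.780 for Fos. Il2, the growth factor that opposes Tfh formation, had 27 UMIs in RGX-104 Tfh and 70 in control Tfh, a ratio of 0.503 (0.310 to 0.794). In other T cells the ratio was 1.997, at levels of only 2.23 CPM with RGX-104 and 1.12 CPM with control chow. There 11 RGX-104 UMIs came from 3 Bcat1+ T cells and 5 from 1 gamma delta T cell. Of the Il2 UMIs of control Tfh, 37 came from 6 Cd8-positive cells. Without Cd8-positive cells the ratio was 0.608, on 19 UMIs in RGX-104 Tfh and 33 in control Tfh, with an interval of 0.327 to 1.10 that includes 1. Ifng, the Th1 cytokine, had 34 UMIs in RGX-104 Tfh and 24 in control Tfh, a ratio of 1.85 (1.06 to 3.26), against 7.08 in other T cells. The ratio in other T cells rested on few cells. With RGX-104, 86 UMIs came from 4 CD8_01 cells and 102 from 15 cytotoxic T cells. That type had 44 cells in the RGX-104 library and 16 in the control library.

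Values of cytotoxic and cell cycle genes shifted when Cd8-positive cells were left out. Nkg7 had 77 UMIs in RGX-104 Tfh and 274 in control Tfh, a ratio of 0.366 (0.281 to 0.473), and 0.631 without Cd8-positive cells. Ccl5, a chemokine of effector T cells, had 246 UMIs in RGX-104 Tfh and 147 in control Tfh, a ratio of 2.18 (1.77 to 2.70), but 1 RGX-104 cell held 43.9% of its UMIs there. Of 13 measured proliferation genes, 5 were at least 1.5-fold lower, beside 5.43% of all measured genes, 0 were higher, and the median log2 ratio was −0.52. In other T cells 0 of 24 were lower, beside 1.79% of all genes measured there, 7 were higher, beside 2.99%, and the median was 0.27. Mcm5, a subunit of the replicative helicase, had 10 UMIs in RGX-104 Tfh and 47 in control Tfh, a ratio of 0.277 (0.125 to 0.556). Without Cd8-positive cells 2 of 10 measured proliferation genes were lower, beside 6.13% of all genes measured there, and the median was −0.24. The deposited S phase score was above 0 in 29 of 84 RGX-104 Tfh and 52 of 126 control Tfh, and above 0.2 in 2 RGX-104 Tfh and 10 control Tfh. The G2M score was above 0 in 26 RGX-104 Tfh and 33 control Tfh, and above 0.2 in 2 RGX-104 Tfh and 4 control Tfh. Both scores were under 0 in 42.9% of RGX-104 Tfh and 46.0% of control Tfh. The median log2 ratio was −0.12 over 11 glycolysis genes and −0.09 over 22 genes of oxidative phosphorylation. In either list 0 genes passed 1.5-fold, while of all measured genes 4.30% were higher and 5.43% lower. Of 13 measured interferon response genes 1 was at least 1.5-fold higher, beside 4.30% of all measured genes, and 0 lower. It was Parp14, with 73 UMIs in RGX-104 Tfh and 52 in control Tfh, a ratio of 1.83 (1.27 to 2.67).

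Among all measured genes, the highest ratios by the interval bound nearest to 1 were those of Penk, Abca1, Scd2, Mylip, Abcg1, Srebf1, Idi1 and Fdps, so 7 of 8 belonged to the sterol lists. Penk, which encodes a precursor of enkephalin, had 167 UMIs in RGX-104 Tfh and 14 in control Tfh, from 4 RGX-104 cells and 2 control cells, and 1 RGX-104 cell held 59.3% of them. The 8 lowest were Ccl1, Cd8b1, Cd8a, Irf4, Ctla2a, Hist1h2ae, Nkg7 and Klf2. Ccl1, a chemokine, had 4 UMIs in RGX-104 Tfh and 369 in control Tfh, of which 346 came from 1 control cell. Irf4 and Klf2 came from 28 and 73 control cells and kept ratios of 0.171 and 0.320 without Cd8-positive cells. Ctla2a, a cathepsin inhibitor, had 7 UMIs in RGX-104 Tfh and 56 in control Tfh, and without Cd8-positive cells 5 UMIs in RGX-104 Tfh and 13 in control Tfh.

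The receptors of Tfh were nearly all distinct. A clonotype was defined by the V and J segments and the CDR3 nucleotides of the TRA and TRB chain with most UMIs. Both chains were found in 59 of 84 RGX-104 Tfh (70.2%) and 94 of 126 control Tfh (74.6%), which held 58 clonotypes with RGX-104 and 90 with control chow. Cells in clonotypes of at least 2 Tfh numbered 2 of 59 (3.39%, 0.413 to 11.7) with RGX-104 and 8 of 94 (8.51%, 3.75 to 16.1) with control chow, and these intervals overlap. At 59 cells, the expected number of clonotypes was 58 in RGX-104 Tfh and 57.4 in control Tfh. No paired Tfh clonotype was found in another T cell type or in the other library. By the TRB chain alone, 3 RGX-104 Tfh and 1 control Tfh shared a chain with another T cell type of their own library, and 1 RGX-104 Tfh and 1 control Tfh with another type of the other library. One of these chains, of TRBV13-1 and TRBJ2-3, occurred in 1 Tfh of each library. In the RGX-104 library, a chain of TRBV20 and TRBJ2-4 and a chain of TRBV5 and TRBJ2-4 were shared with cytotoxic T cells. Those cytotoxic T cells had no TRA chain, so a paired match with them could not be found. Over both libraries, 10 of 153 paired Tfh (6.54%, 3.18 to 11.7) and 39 of 2293 paired other T cells (1.70%, 1.21 to 2.32) shared their clonotype with a cell of their own group. Counted by the authors, 13 of 77 RGX-104 Tfh and 24 of 114 control Tfh with a value had a clonal frequency of at least 2, the largest being 9 in the RGX-104 library and 7 in the control library. The deposited values also cover Tfh without both chains. In Tfh with both chains they equalled the number of annotated T cells with the same clonotype in 58 of 59 RGX-104 cells and 94 of 94 control cells.

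The 5 repeated clonotypes are shown as the only receptors of paired TRA and TRB chains seen in more than 1 Tfh of a library. Each was found in 2 cells whose barcodes differed at 10 to 14 bases. The TRB CDR3 nucleotides are given 5′ to 3′, and capitals mark the bases between the V end and the J end, each end being the stretch shared by at least 50% of the CDR3s with that segment.
RGX-104 clonotype 1 TRB: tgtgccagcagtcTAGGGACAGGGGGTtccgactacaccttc
control clonotype 1 TRB: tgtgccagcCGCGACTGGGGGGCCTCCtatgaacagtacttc
control clonotype 2 TRB: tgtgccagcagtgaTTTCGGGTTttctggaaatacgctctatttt
control clonotype 3 TRB: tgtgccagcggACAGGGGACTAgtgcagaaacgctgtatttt
control clonotype 4 TRB: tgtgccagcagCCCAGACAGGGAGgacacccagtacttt
The RGX-104 clonotype used TRAV3-1 with TRAJ18 and TRBV26 with TRBJ1-2, and both of its cells held Sh2d1a and Tox2 UMIs. Both cells of control clonotype 3 held Icos and Pdcd1 UMIs. Both cells of control clonotype 4 held a CD8 UMI and Icos. The capitals ran over 9 to 18 bases, and no pair of the 5 clonotypes shared its V and J segments.

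V segment use was spread over 37 TRAV and 19 TRBV segments in RGX-104 Tfh and 46 TRAV and 19 TRBV segments in control Tfh. TRBV26 was found in 7 of 75 RGX-104 Tfh with a TRB chain (9.33%) and 2 of 111 control Tfh (1.80%), a ratio of 5.18 whose interval of 0.986 to 51.1 includes 1. TRBV3 was found in 12 RGX-104 cells (16.0%) and 8 control cells (7.21%), a ratio of 2.22 whose interval also includes 1. Chains that carried the labels of both TRBV12-2 and TRBV13-2 were found in 4 RGX-104 cells (5.33%) and 18 control cells (16.2%), a ratio of 0.329 (0.0810 to 0.998). These segments were picked after their counts were seen, and many segments were counted.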

How the data were processed

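The deposited files held UMI counts per gene and barcode for 1 RNA library per chow, which the matrix header credits to Cell Ranger 5.0.0; the submitters' processing notes also name mm10 and Seurat 5.0.3. Contig annotations gave UMI counts per TCR chain, and the authors' cell table gave totals as counts, mitochondrial percent, and doublet, S phase and G2M scores deposited per cell. The doublet caller, the filters and the pooling of mice were not given in the sources used here. Reads from overlapping or antisense genes and from near-identical copies, such as TRBV12-2 and TRBV13-2, can be split uncertainly.

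Annotated cells were matched to barcodes by total count and gene number, both recomputed over genes seen in 3 or more barcodes, and by mitochondrial percent. Counts were summed over Tfh of each library and divided by the total to give CPM. A ratio has an exact conditional binomial 95% interval, a share a Clopper-Pearson interval, and a level an exact Poisson interval. Differences of log2 ratios between cell types have a counting interval on the log scale. Genes with at least 50 UMIs over both libraries were called measured, and 1.5-fold was the size threshold. A level of 0 was given the limit of 3 UMIs. The ratio and its interval were run on simulated counts. Those counts had counting error only, so the run could not test the effect of spread between cells. Other steps were not simulated. No count model was fitted, because each chow had 1 library; edgeR 4.0.16 in R 4.3.3 gave the TMM factors of an alternative scaling. Other steps used Python 3.11.15 with numpy 2.4.6, scipy 1.17.1, pandas 2.3.3 and matplotlib 3.10.9.

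The 28 gene lists, the markers and the cells described were chosen with earlier results of these data known, and support nothing by themselves. Named genes were all members of the Tfh, homing and oxysterol lists, up to 4 of each other list with the largest ratio, the 8 highest and 8 lowest ratios with at least 20 CPM in 1 library (receptor segments, immunoglobulin, mitochondrial, ribosomal protein and unnamed genes left out), the 12 genes highest in Tfh over other T cells, and Abca1, Abcg1, Srebf1, Scd2, Mylip, Nr1h2, Nr1h3, Apoe, Bcl6, Cxcr5 and Icos. Some genes covered by this rule are not reported here. Genes named outside this rule (Egr2, Egr3, Nr4a1, Nr4a3 and other list members) were chosen after their values were seen. The TCR chains were joined to cells by barcode. Promoters and gene positions were matched by symbol to RefSeq tables on GRCm38.p6.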

Additional observations from a re-analysis of the deposited data

Results flagged for a closer look

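In 8 named genes the ratio of RGX-104 to control Tfh lay on one side of 1 and that of other T cells on the other, with neither counting interval including 1. With 1 library per chow none of these differences was tested. Irf4 had a ratio of 0.190 (0.0976 to 0.343) in Tfh and 1.53 in other T cells together. In single compared types its interval lay above 1 only in Th1_01 and Th1_03. Apoe had 0.115 in Tfh, on 3 UMIs with RGX-104 and 34 with control chow, and 2.28 in other T cells. Rgs16 had 0.435 in Tfh and 2.26 in other T cells. The cell cycle genes Mcm3 and Rrm1 had 0.435 and 0.493 in Tfh, against 1.16 and 1.23 in other T cells. The histone gene Hist1h2ae had 0.236 in Tfh, from 5 RGX-104 cells and 8 control cells, and 1.40 in other T cells. Ctla2a had 0.163 in Tfh and 1.11 in other T cells. Penk had 15.6 in Tfh, from 4 RGX-104 cells and 2 control cells, and 0.339 in other T cells. Of the 7 compared types only 2 had a Penk ratio, Treg with 0.190 and CD8_03 with 0.302. Their control levels were 303 CPM in Treg and 2.62 CPM in CD8_03. With CD8-positive cells left out of every type, the ratios of Irf4, Apoe and Penk still lay on opposite sides of 1 with neither interval including 1. Hist1h2ae then had 0.660 (0.322 to 1.31) in Tfh and 0.584 in other T cells, which is the same direction. Mcm3 and Rrm1 had 0.813 and 0.960 in other T cells there, on the same side of 1 as in Tfh. For Rgs16 and Ctla2a the intervals in Tfh and in other T cells then included 1. When Tfh with a cycle score above 0 were left out, the Tfh ratios of Rgs16, Mcm3, Rrm1 and Hist1h2ae lay above 1, as given below.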

How the results depend on the processing

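No paired analysis was possible because each chow had 1 library, and leaving out a replicate was not possible either. Under 13 alternative settings, 62 values of the main results kept their direction within the counting interval, 8 moved and 1 reversed. Leaving out Tfh with UMIs of at least 2 B cell or myeloid genes kept 19 RGX-104 and 52 control cells. The median of LXR targets was then −0.10 over the 2 genes still measured, while the log2 ratio of Abca1 was 4.12 there. The ratio of Tfh shares was 0.384, but cells were left out of Tfh only and all annotated T cells stayed in the base. Such UMIs were also found in 76.4% of other T cells with RGX-104 and 65.1% with control chow. This ratio therefore does not show how the share would change with both sides filtered. The LXR median was 1.09 over the 14 genes with at least 20 UMIs. Without Cd8-positive cells the number of higher cholesterol genes was 4 and that of higher programme genes 0, which was 0 also at 2-fold. The Klf2 difference from other T cells was −1.29 when cells with a CD8 UMI were left out of every type. The shares of cells with Bcl6 were 13.5% in RGX-104 Tfh and 13.3% in control Tfh after thinning. The cholesterol median gave no value without cells with B cell or myeloid UMIs, without cells with a cycle score above 0, or at 100 UMIs, because too few genes were left.

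Of the values of 110 measured named genes, 1075 lay within the counting interval of the main result, 106 lay outside it and 17 were called reversed. A value was called reversed only where the main interval excluded a log2 ratio of 0. Other changes of side were not counted, such as that of Bcl6, whose log2 ratio ran between −0.55 and 0.06. Without cells with a cycle score above 0, log2 ratios were 0.94 for Hist1h2ae, 0.94 for Mcm3, 0.36 for Mcm2, 0.36 for Rrm1, 1.17 for Rgs16, 0.15 for Angptl2, 0.28 for Nrn1 and −0.38 for Ccl5. Without cells with B cell or myeloid UMIs they were 1.42 for Rgs16, 0.29 for Foxo1, 0.000224 for Mcm3, 0.42 for Rrm1 and −0.065 for Cd4. Without Cd8-positive cells they were −0.041 for Cd4 and −1.004 for Sostdc1, and Sostdc1 had −0.47 without cells with a doublet score above 0.2 and −0.70 without its top cell in each library. The causes were not tested. The settings for shared barcodes, doublet scores, barcodes without annotation, CD8 cells of other types and thinned Bcl6 were chosen after seeing the data. Klf2 and Irf4 stayed below 1 in every setting, with log2 ratios of −1.64 to −0.999 for Klf2 and −3.23 to −2.06 for Irf4.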
